A study of Mus musculus with 7 samples.

Results

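The enzymes of the tricarboxylic acid cycle were followed here through 9 of their genes, Cs, Idh3a, Idh3b, Idh3g, Ogdh, Sucla2, Suclg1, Mdh1 and Mdh2, in a time course of H3K18La (histone H3 lactylated at lysine 18) in the mouse retina. The peaks followed were all those that the deposited table assigned to one of these gene symbols, with the promoter peak nearest the transcription start site taken first as the lead peak of the gene. A promoter ran from -1000 to +500 bp of the start. By this rule 7 of the 9 genes had peaks, 14 in all of the 108253 peaks in the table, of which 8 were promoter peaks and 7 were lead peaks. Mdh1 and Mdh2 carried no peak under their own symbols. The peaks over their start sites carried the symbols of the neighbouring genes Wdpcp and Styxl1, and these 2 peaks were added by coordinate after the table had been seen and are kept out of the counts over the 7 lead peaks.

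Wild-type C57Bl/6J retinas, with no transgene or treatment in any group, were taken at postnatal day 4 (P4, 2 libraries), P10 (2 libraries) and P28 (3 libraries), and dissociated with papain into single cells before the assay. In CUT&Tag an antibody to the mark brings an enzyme to the chromatin that carries it, and the DNA cut or tagged there is sequenced. Values are read rates scaled to the length of the peak and the size of the library (RPKM), so levels can be set side by side between peaks of unlike length. The labels number the replicates within each age and do not say how many animals each holds, so a p-value measures the spread between libraries. Whole retina was assayed, so more cells of a type and more mark per cell cannot be told apart at any gene.

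The cycle oxidises acetyl-CoA in the mitochondrial matrix and passes the electrons to the respiratory chain. Citrate synthase (Cs) joins acetyl-CoA to oxaloacetate, the NAD-linked isocitrate dehydrogenase (Idh3a, Idh3b and Idh3g) makes alpha-ketoglutarate, the alpha-ketoglutarate dehydrogenase complex (Ogdh) makes succinyl-CoA, succinyl-CoA ligase (Sucla2 and Suclg1) recovers a nucleoside triphosphate from it, and malate dehydrogenase (Mdh2) closes the circle, with Mdh1 as its cytosolic counterpart. Photoreceptors pack their inner segments with mitochondria while also turning much of their glucose into lactate, the source of the acyl group of lactylation, and loss of function of human IDH3A or IDH3B is a known cause of retinal degeneration.

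The lead peaks lay over annotated start sites on the GRCm38 assembly, and all coordinates here are of that build. They covered chr10:128337351-128338418 at Cs, chr9:54586266-54587372 at Idh3a, chr2:130283863-130284475 at Idh3b, chrX:73785972-73787794 at Idh3g, chr11:6291172-6292962 at Ogdh, chr14:73552518-73553411 at Sucla2 and chr6:73248178-73249044 at Suclg1. The peak over the Mdh1 start was chr11:21571135-21572422 and that over the Mdh2 start chr5:135777863-135779196. In 3 of the 9 peaks the starts of a second gene on the opposite strand lay under the same peak, Ssr4 beside Idh3g, Wdpcp beside Mdh1 and Styxl1 beside Mdh2, and the mark there cannot be given to one gene of the pair. Stretches of the RefSeq promoter windows (GRCm38.p6) that touch no exon of a protein-coding gene are shown for 5 of the genes. Cs and Ogdh are shown because their peaks rose at both later ages, Suclg1 because its peak was the highest of the members at P4, and Idh3g and Mdh2 because the short stretch separates 2 genes that run in opposite directions. Capitals mark matches, on either strand, to the motif letters given further on.
Cs, chr10:128337477-128337726, plus strand: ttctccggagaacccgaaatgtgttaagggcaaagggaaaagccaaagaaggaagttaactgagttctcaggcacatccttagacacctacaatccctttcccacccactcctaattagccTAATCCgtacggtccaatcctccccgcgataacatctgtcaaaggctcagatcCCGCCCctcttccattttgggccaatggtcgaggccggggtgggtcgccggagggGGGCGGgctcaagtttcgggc
Ogdh, chr11:6291347-6291596, plus strand: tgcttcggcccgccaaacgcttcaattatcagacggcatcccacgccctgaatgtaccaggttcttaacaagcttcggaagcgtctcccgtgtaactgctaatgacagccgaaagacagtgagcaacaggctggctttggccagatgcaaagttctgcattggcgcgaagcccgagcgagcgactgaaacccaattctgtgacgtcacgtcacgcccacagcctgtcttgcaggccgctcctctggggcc
Suclg1, chr6:73248255-73248381, plus strand: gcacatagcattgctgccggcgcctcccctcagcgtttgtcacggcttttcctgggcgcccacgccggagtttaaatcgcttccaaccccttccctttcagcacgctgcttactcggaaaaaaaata
Idh3g, chrX:73786898-73787022, minus strand: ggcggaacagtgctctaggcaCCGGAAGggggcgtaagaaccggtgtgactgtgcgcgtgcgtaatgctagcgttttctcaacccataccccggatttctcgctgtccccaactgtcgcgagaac
Mdh2, chr5:135778425-135778479, plus strand: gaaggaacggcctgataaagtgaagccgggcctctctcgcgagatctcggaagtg
The Cs stretch holds 3 matches, the Idh3g stretch holds 1, and the others hold none of these letters. CG dinucleotides numbered 13 in the 250 bases of Cs, 18 in the 250 bases of Ogdh, 10 in the 127 bases of Suclg1, 12 in the 125 bases of Idh3g and 5 in the 55 bases of Mdh2.

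Depth differed between ages. Reads in peaks numbered 199970 to 660740 in the P10 libraries, 295383 and 358971 at P4 and 1615969 to 8274373 at P28, and these came to 16.3% and 17.6% at P4, 36.1% and 52.1% at P10 and 42.4% to 57.1% at P28 of the normalised library size that the RPKM values imply. A single start-site peak held 0 to 16 reads in a P4 or P10 library and 5 to 243 at P28, so the early levels are the less precise. P28 replicate 1 was the only library of the second batch in the labels. The tissue label was checked with marker genes. Lead peaks were found for 6 of 7 photoreceptor markers, and their summed level was 15.4 and 17.4 RPKM at P4, 121 and 125 RPKM at P10 and 98.1 to 146 RPKM at P28. All 6 were called higher at P28 than at P4. Among markers of other cells, 3 of 5 progenitor genes, 3 of 3 Mueller glia genes, 2 of 3 bipolar genes, 1 of 4 pigment epithelium genes (Best1), 1 of 2 vessel genes and 0 of 3 microglia genes had a lead peak. The Mueller glia total was 6.89 and 5.61 RPKM at P4, 14.8 and 13.7 at P10 and 15.2 to 19.9 at P28, and its gene Glul was called higher at P28 than at P4 (1.89, adjusted p = 0.00732), while Rlbp1 (0.41, adjusted p = 0.691) and Slc1a3 (0.24, adjusted p = 0.649) were not. The progenitor total was 3.23 and 4.77 RPKM at P4, 1.25 and 2.26 at P10 and 6.26 to 6.99 at P28, and the bipolar total was 2.03 and 2.41, then 1.23 and 0, then 3.78 to 4.87. The pigment epithelium gene Best1 measured 1.37 and 1.20 RPKM at P4, 0 and 0.791 at P10 and 2.63 to 4.34 at P28, and the vessel gene from 1.41 to 7.44. The photoreceptor, Mueller glia, progenitor, bipolar and pigment epithelium totals all stood higher in every P28 library than in both P4 libraries, as the members did, and their part in the members' values was not tested.

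All 7 lead peaks stood higher at P28 than at P4 in every library, and 3 of them, Cs, Idh3a and Ogdh, passed the test (limma on log2(RPKM + 1) over all peaks, Benjamini-Hochberg adjusted p under 0.01, termed called). Among the lead promoter peaks of all 11686 protein-coding genes that had one, 33.2% were called higher at P28 than at P4 and in 79.5% the P28 libraries all exceeded both P4 libraries. Over all peaks 18.9% were called higher, 20488 of the 25041 called in either direction, and with libraries scaled to their reads in peaks 7796 of 24230 calls were higher. The median difference of the 7 lead peaks was 1.28 on the log2(RPKM + 1) scale, beside 1.33 for all lead promoter peaks. Between P4 and P10, 2 members were called higher, Cs and Ogdh, where the share among all lead promoter peaks was 11.8% and over all peaks 11.4%. The median difference at P10 was 1.22 for the members and 0.54 for all lead promoter peaks, and 4 of 7 had both P10 libraries above both P4 libraries, a pattern seen in 46.0% of all lead promoter peaks. The member median is the Idh3a difference, which came to 0.27 with libraries scaled to their reads in peaks. That scaling moved the P10 against P4 median over all peaks from 0.23 to -0.52. Between P10 and P28 limma called none of the 7, and 3 had an unadjusted p under 0.05, as had 35202 of all 108253 peaks. The limma-voom fit of recovered reads called 0 of the 7 as well. Called higher between these ages were 0.00185% of all peaks and 0.0% of lead promoter peaks, while 54.6% of lead promoter peaks, and 4 of the 7 members, had every P28 library above every P10 library. Without any one P28 library the count at P10 was 1, where 5473 to 7669 of the 108253 peaks were called higher, against 12320. Without P4 replicate 2, which leaves 1 library at P4, the P10 differences were 2.55 (Cs) and 1.38 (Ogdh), and neither kept its call. The median over all peaks was then 0.24, against 0.23 with all libraries. Without P10 replicate 2, which leaves 1 library at P10, Idh3a and Sucla2 differed between P10 and P28 by 1.67 and 2.36. The median over all peaks was then 0.60, against 0.39 with all libraries. Differences on this scale understate the change of low peaks.

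**Figure D1:**
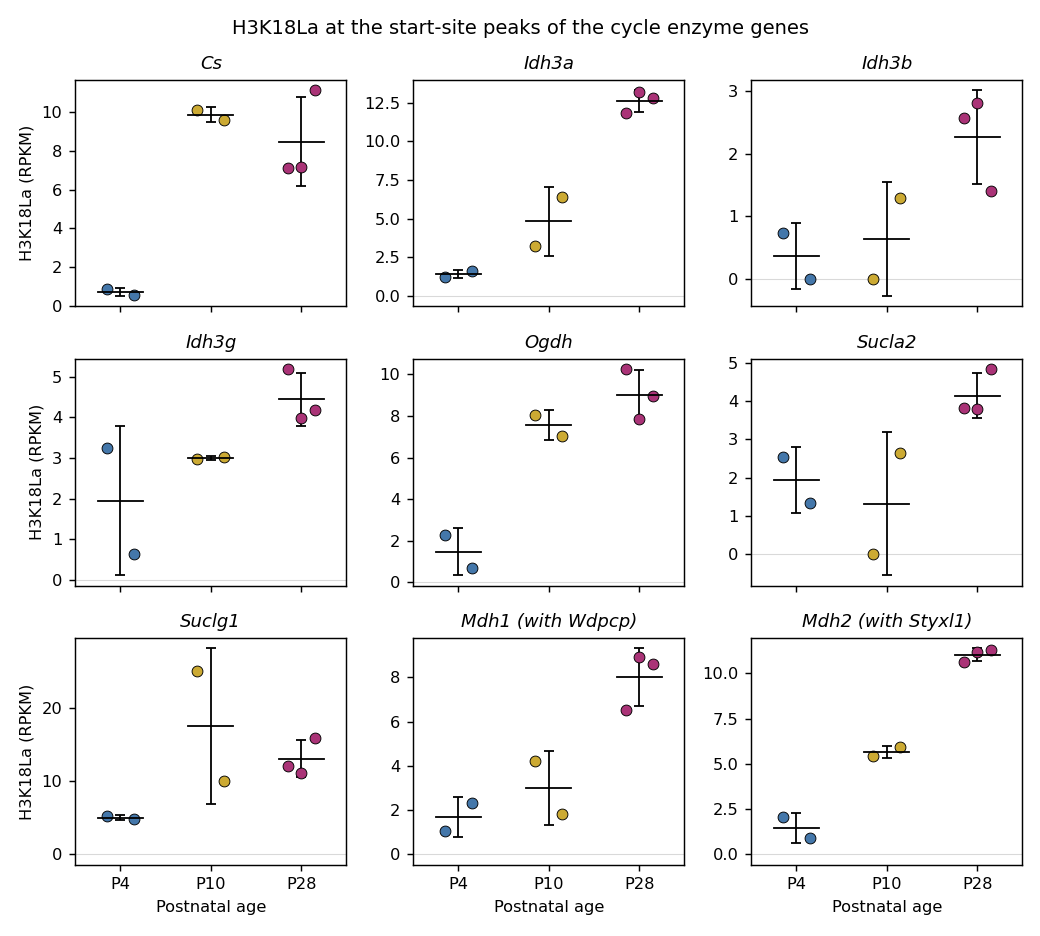
Level of H3K18La (RPKM, linear axis, a scale of its own in each panel) at the start-site peak of each gene, with 1 point per library at P4, P10 and P28 (horizontal line, mean; bar, SD; n = 2, 2 and 3). Cs and Ogdh reached at P10 a level near that of P28, Idh3a and Mdh2 stood between the P4 and P28 values at P10, and the P10 libraries of Suclg1 stood apart at 24.99 and 10.002 RPKM.

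Among the start-site peaks, that of citrate synthase had the largest fitted difference between P4 and P10. Its lead peak measured 0.851 and 0.559 RPKM at P4, 10.1 and 9.60 at P10, and 7.12, 7.19 and 11.2 at P28. The 2 early libraries held 2 and 1 reads there, against 6 and 13 reads at P10 and 29 to 125 at P28. Every later library stood above both P4 libraries, and the P10 values fell within the range of the P28 values. The difference in log2(RPKM + 1) was 2.46 (SE 0.33, adjusted p = 0.000562) for P28 against P4 and 2.68 (SE 0.37, adjusted p = 0.00114) for P10 against P4, and -0.22 (SE 0.33, adjusted p = 0.668) for P28 against P10. Since the P4 libraries together held 3 reads, the ratio of pooled read rates was 11.1 with a 95% counting interval of 3.76 to 54.4 for P28 over P4, which covers counting error only. Scaled to reads in peaks, the P28 difference was 1.51 and still called (adjusted p = 0.00663). The rise at P10 lost its call without P4 replicate 2 (adjusted p = 0.0105). A second peak, in exon 2 (chr10:128349424-128350083), held no reads at P4, 0 and 1.19 RPKM at P10 and 3.58, 1.96 and 2.09 RPKM at P28. It was called higher at P28 than at P4 (adjusted p = 0.00867), at least 1.06-fold when each P4 library is set to a floor of 3 reads. With no reads at P4 and 1 read in all at P10, this peak could enter the peak set only through P28. Its higher level at P28 was thus fixed by that selection, and the call gives no support of its own. Another, in the 3' UTR (chr10:128359952-128361384), went the other way, from 1.27 and 1.25 RPKM at P4 to 0.549, 0.686 and 0.723 at P28, with no overlap but no call (difference -0.45, SE 0.30, adjusted p = 0.241).

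The genes for the 3 subunits of NAD-linked isocitrate dehydrogenase did not share a level. Idh3a encodes the catalytic alpha subunit, and Idh3b and Idh3g the beta and gamma subunits that complete and regulate the enzyme. The Idh3a lead peak measured 1.23 and 1.62 RPKM at P4, 3.26 and 6.41 at P10, and 11.8, 13.2 and 12.8 at P28. The 3 ages did not overlap, and the P10 libraries lay between the others. The difference in log2(RPKM + 1) was 2.49 (SE 0.34, adjusted p = 0.000569) for P28 against P4, and was 1.22 (adjusted p = 0.0290) for P10 against P4 and 1.28 (adjusted p = 0.0378) for P28 against P10, neither of them called. Without P4 replicate 1 the P28 difference was 2.38 and lost its call. The P10 difference was 1.62 without P10 replicate 1 and 0.82 without P10 replicate 2. Between P28 and P10 the difference was 0.88 without P10 replicate 1 and 1.67 without P10 replicate 2. Scaled to reads in peaks, the differences from P4 were 1.35 at P28, still called (adjusted p = 0.00578), and 0.27 at P10 (adjusted p = 0.514). A second Idh3a promoter peak, at the start of a retained-intron transcript (chr9:54594765-54595314), stayed low at 0 and 1.08 RPKM at P4, 0 and 4.30 at P10, and 1.91, 2.24 and 2.20 at P28 (P28 against P4, difference 1.11, SE 0.67, adjusted p = 0.201).

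Idh3b had the lowest lead peak of the members at P28. It measured 0.741 and 0 RPKM at P4, 0 and 1.29 at P10, and 2.57, 2.81 and 1.41 at P28, from 1, 0, 0 and 1 reads in the early libraries. Both early ages were thus at or under the floor of 3 reads, and a change between P4 and P10 was not detectable at this depth. The P28 libraries stood above all others, with a difference of 1.28 (SE 0.48, adjusted p = 0.0558) against P4 that was not called. With so few early reads this peak could enter the peak set only through P28, which fixed that order in advance. The pooled read rate at P28 over P4 was 5.84 with a counting interval of 0.989 to 237, and setting early libraries with 3 reads or fewer to 3 reads turned the fitted difference to -0.15.

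Idh3g, whose peak it shares with the start of Ssr4, a translocon-associated protein gene, measured 3.24 and 0.655 RPKM at P4, 2.97 and 3.03 at P10, and 5.18, 3.98 and 4.17 at P28. The P4 libraries were far apart and spanned the P10 values, while all P28 libraries were above both other ages. The difference between P28 and P4 was 1.03 (SE 0.45, adjusted p = 0.0894) and was not called. It was 1.71 without P4 replicate 1 and 0.35 without P4 replicate 2. It came to -0.049 when each library was scaled to its reads in peaks.

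Ogdh encodes the first subunit (E1) of the alpha-ketoglutarate dehydrogenase complex. Its lead peak measured 2.28 and 0.666 RPKM at P4, 8.06 and 7.04 at P10, and 10.3, 7.86 and 8.97 at P28. Both later ages stood clear of P4 and overlapped each other. The difference in log2(RPKM + 1) was 2.09 (SE 0.37, adjusted p = 0.00185) for P28 against P4, 1.87 (SE 0.40, adjusted p = 0.00643) for P10 against P4 and 0.23 (SE 0.37, adjusted p = 0.692) for P28 against P10. The call at P28 was lost when libraries were scaled to reads in peaks (1.00, adjusted p = 0.1001) and without P4 replicate 2 (1.60, adjusted p = 0.0159), P28 replicate 1 (adjusted p = 0.0119) or P28 replicate 3 (adjusted p = 0.0113). The call at P10 was lost without any one of these 3 libraries, P10 replicate 1 or P28 replicate 2 (adjusted p = 0.0117 to 0.0298), and with scaling to reads in peaks (0.96, adjusted p = 0.160), a pseudocount of 0.1 (adjusted p = 0.0144) or median centring (adjusted p = 0.0103).

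**Figure D2:**
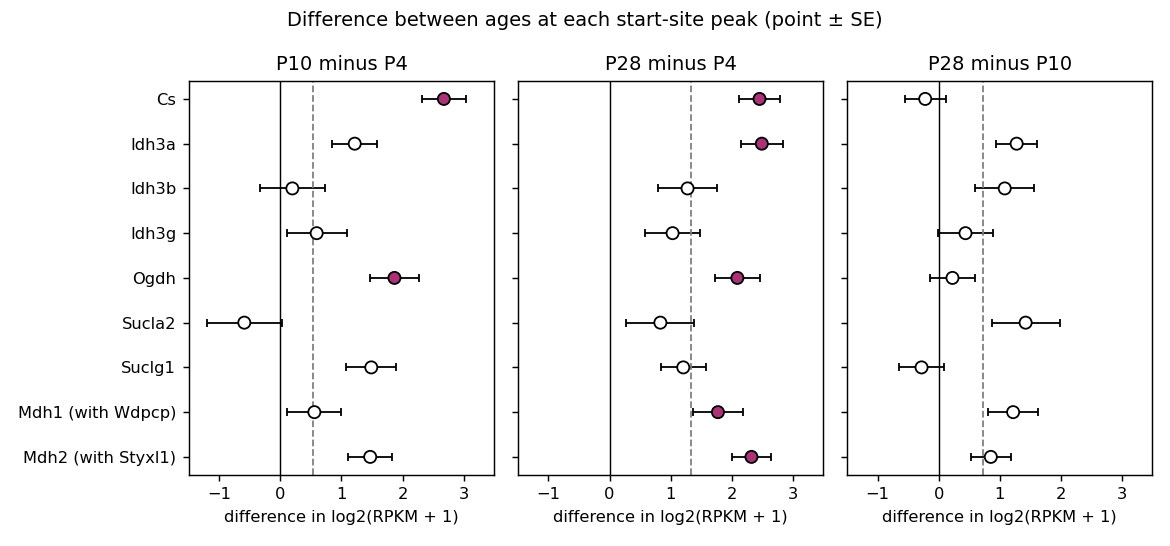
Difference in log2(RPKM + 1) between 2 ages at each start-site peak, those of Mdh1 and Mdh2 included (point, fitted value; bar, SE; dashed line, median of all lead promoter peaks; filled points, adjusted p under 0.01 by limma). Cs and Ogdh are filled for P10 against P4, 5 genes (Cs, Idh3a, Ogdh, Mdh1 and Mdh2) are filled for P28 against P4 and none for P28 against P10.

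Succinyl-CoA ligase joins the alpha subunit encoded by Suclg1 to a beta subunit, of which Sucla2 encodes the ADP-forming kind. The Suclg1 lead peak was the highest of the members at P4, with 5.24 and 4.82 RPKM, against 24.99 and 10.002 at P10 and 12.1, 11.1 and 15.9 at P28. Every later library exceeded the early ones, but the 2 P10 libraries differed from each other more than the P28 libraries did. The difference was 1.21 (SE 0.37, adjusted p = 0.0266) for P28 against P4 and 1.49 (SE 0.41, adjusted p = 0.0183) for P10 against P4, and neither was called. The P10 difference was 0.87 without P10 replicate 1, 2.11 and called without P10 replicate 2 (adjusted p = 0.00247), and 0.30 with libraries scaled to reads in peaks (adjusted p = 0.665). With libraries scaled to reads in peaks the P28 difference became -0.17 (adjusted p = 0.772). Without one or the other P10 library the same P28 difference was called (adjusted p = 0.00336 and 0.00278).

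The Sucla2 lead peak measured 2.54 and 1.335 RPKM at P4, 0 and 2.65 at P10, and 3.82, 3.78 and 4.83 at P28. Only the P28 libraries stood together above the rest, and the P10 library listed at 0 was the shallowest of the series. The difference between P28 and P4 was 0.83 (SE 0.56, adjusted p = 0.248), and that between P10 and P4 was -0.59 (SE 0.61, adjusted p = 0.497). That between P28 and P10 was 1.42 (SE 0.56, adjusted p = 0.111). It was 2.36 without P10 replicate 2, 0.49 without P10 replicate 1 and 0.013 with the floor of 3 reads. The P28 against P4 value became -0.32 with scaling to reads in peaks, 1.13 without P4 replicate 1 and 0.53 without P4 replicate 2. The P10 against P4 value became 0.34 without P10 replicate 1.

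Suclg1 held the most peaks of the members, 5, and 2 of them lay in introns. The intron 6 peak (chr6:73270075-73270515, 21693 bp from the start site) measured 1.03 and 0 RPKM at P4, 12.3 and 12.5 at P10, and 2.38, 4.74 and 4.31 at P28. The P10 libraries stood above all others, and the P28 libraries stood above both P4 libraries. Its difference was 3.23 (SE 0.47, adjusted p = 0.00141) for P10 against P4, 1.72 (SE 0.43, adjusted p = 0.0106) for P28 against P4 and -1.52 (SE 0.43, adjusted p = 0.0450) for P28 against P10. The P4 libraries held 1 and 0 reads there. With each P4 library set to a floor of 3 reads, the peak was at least 3.47-fold higher at P10 and 1.065-fold at P28. The pooled read rate at P28 over P10 was 0.345 with a counting interval of 0.173 to 0.764, from 49 and 10 reads. The intron 7 peak (chr6:73271175-73273197) measured 2.02 and 2.95 RPKM at P4, 15.2 and 29.6 at P10, and 8.56, 11.6 and 16.8 at P28. It was called higher at P10 (2.69, SE 0.41, adjusted p = 0.00170) and at P28 (1.90, SE 0.38, adjusted p = 0.00350) than at P4, and the later ages overlapped. Calls at peaks of the members other than the start-site peaks were not followed through the alternative fits. The 2 other peaks of the gene, annotated as 3' UTR and distal, showed differences of 0.06 and -0.32 between P28 and P4 with adjusted p-values of 0.938 and 0.738. Over all 14 peaks of the members, 5 were called higher at P28 than at P4, where 18.9% of all peaks were, and 4 at P10 than at P4, where 11.4% were, and none was called lower. The 5 include the Cs exon 2 peak, whose higher level at P28 was fixed by its entry through P28 alone.

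**Figure D3:**
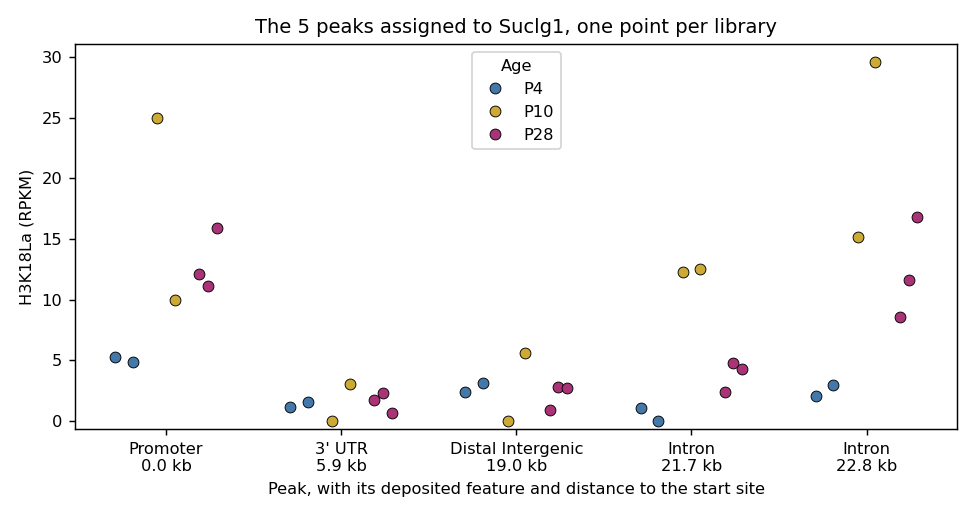
Level of H3K18La (RPKM) at the 5 peaks assigned to Suclg1, with 1 point per library coloured by age, ordered by the deposited distance to the start site of the nearest transcript (kb). Both intron peaks were higher at P10 than at P4 in every library. In the intron 6 peak the P10 libraries, at 12.3 and 12.5 RPKM from 3 and 7 reads, also exceeded all P28 libraries.

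The malate dehydrogenases were read from the peaks over their start sites. Mdh2 encodes the mitochondrial enzyme of the cycle, and its peak, which lies over the Styxl1 starts too, measured 2.04 and 0.895 RPKM at P4, 5.41 and 5.91 at P10, and 10.6, 11.2 and 11.3 at P28. The 3 ages did not overlap. The difference was 2.32 (SE 0.33, adjusted p = 0.000657) for P28 against P4, called, and 1.47 (SE 0.36, adjusted p = 0.0110) for P10 against P4 and 0.85 (SE 0.33, adjusted p = 0.104) for P28 against P10, not called. Scaled to reads in peaks, the P28 difference was 1.20 and lost its call (adjusted p = 0.0238). Mdh1 encodes the cytosolic enzyme of the malate-aspartate shuttle, and its peak, shared with Wdpcp, measured 1.06 and 2.32 RPKM at P4, 4.205 and 1.84 at P10, and 6.52, 8.92 and 8.58 at P28. P4 and P10 overlapped, and P28 stood above both. The difference between P28 and P4 was 1.77 (SE 0.40, adjusted p = 0.00693) and the call was lost without P4 replicate 1 (1.43, adjusted p = 0.0647), P4 replicate 2 (2.12, adjusted p = 0.0234), P28 replicate 1 (1.90, adjusted p = 0.0198), P28 replicate 2 (1.70, adjusted p = 0.0400) or P28 replicate 3 (1.73, adjusted p = 0.0350), and with scaling to reads in peaks (0.63, adjusted p = 0.266), a pseudocount of 0.1 (adjusted p = 0.0185) or median centring (adjusted p = 0.0317). The P10 difference of 0.56 (adjusted p = 0.370) turned to -0.35 with that scaling. Over single left-out libraries it ran from 0.12 (without P10 replicate 1) to 0.99 (without P10 replicate 2).

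Ordered by mean level at P28, Suclg1 (13.1 ± 2.54 RPKM, SD, n = 3) came first, followed by Idh3a (12.6 ± 0.699), the Mdh2 peak (11.0 ± 0.354), Ogdh (9.03 ± 1.20), Cs (8.49 ± 2.31), the Mdh1 peak (8.01 ± 1.30), Idh3g (4.44 ± 0.646), Sucla2 (4.14 ± 0.596) and Idh3b (2.26 ± 0.748). Ogdh, Cs and Mdh1 overlapped as neighbours, as did Suclg1 with Idh3a and Idh3g with Sucla2. The libraries of the other neighbours did not overlap. The order at P4 was led by Suclg1 (5.03 ± 0.299 RPKM, n = 2) and Cs (0.705 ± 0.207 RPKM) was next to last, ahead of Idh3b. Ranked among all lead promoter peaks of the same library, a measure that scaling a library leaves as it is, Cs moved from the percentiles 27.3 and 16.0 at P4 to 92.4 and 89.2 at P10 and 69.8 to 80.8 at P28. Idh3a moved from 40.6 and 50.2 to 60.8 and 78.6 and then to 85.3 to 89.8. Ogdh stood at 70.5 and 19.6 at P4 and at 72.8 or above later, and the Mdh2 peak at 65.2 and 26.9 and then at 75.9 or above. The Mdh1 peak stood at 34.4 and 68.1 at P4, 70.0 and 29.6 at P10 and 68.0 to 78.4 at P28. Idh3g stood at 85.3 and 19.2 at P4, 57.3 and 47.6 at P10 and 36.3 to 57.2 at P28. Sucla2 stood at 75.5 and 41.4 at P4, 13.6 and 42.4 at P10 and 38.1 to 43.6 at P28. Suclg1 stayed near the top, from 94.9 and 96.9 at P4 to 85.6 to 90.7 at P28, and Idh3b stayed at or under 25.1 in every library.

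**Figure D4:**
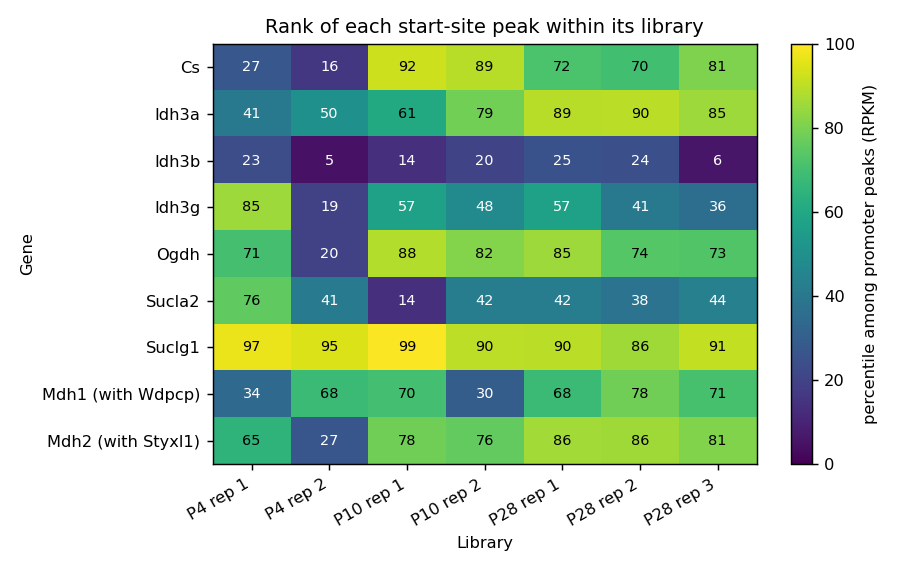
Percentile of each start-site peak among all lead promoter peaks of the same library by RPKM (colour and printed number, 0 lowest and 100 highest), with genes in rows and libraries in columns. Suclg1 stands at 85.6 or above and Idh3b at 25.1 or under in every library, while Cs, Idh3a, Ogdh and the Mdh2 peak stand higher in every P10 and P28 library than in either P4 library.

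Genes that encode parts of one enzyme, or forms of one activity, were compared within each library. The level of Idh3b minus that of Idh3g, in log2(RPKM + 1), was -1.01 ± 0.39 at P4 (n = 2) and -0.76 ± 0.36 at P28 (n = 3), a difference of 0.24 that rests on 1 and 0 reads of Idh3b at P4 and came to -1.05 with the floor of 3 reads. Sucla2 minus Suclg1 was -1.07 ± 0.35 at P4 and -1.44 ± 0.10 at P28, a difference of -0.37 that was -0.12 without P4 replicate 1 and -0.62 without P4 replicate 2. The Mdh1 peak minus the Mdh2 peak was 0.12 ± 0.97 and -0.43 ± 0.18, a difference of -0.55 that ran from -1.23 without P4 replicate 1 to 0.14 without P4 replicate 2. The exact two-sided permutation p was 0.6, 0.2 and 0.6, and 0.6 for each after adjustment over the 3 pairs, where 3 libraries against 2 cannot give a p below 0.2.

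The genes around these enzymes in the pathway were counted in the same way. Of 33 further genes, 30 had a lead peak, 20 of these were called higher at P28 than at P4 and 0 lower, with a median difference of 1.77, and 8 were called higher at P10 than at P4. Among all lead promoter peaks these shares were 33.2% and 11.8%. The P28 count was 6 with libraries scaled to reads in peaks, 8 without either P4 replicate, 9 to 11 without a P28 replicate and 28 without either P10 replicate. Over all peaks the calls moved too, from 20488 higher to 5644 and 6347 without a P4 replicate and to 34707 and 34795 without a P10 replicate. Dlst, Slc25a1 and Pdhx had no lead peak of their own symbol, and the Dlst start lay in a peak labelled Prox2 and the Pdhx start in one labelled Apip. Among other enzymes of the cycle 4 of 10 were called at P28, among them Idh2 (the NADP-linked isocitrate dehydrogenase, 2.57, adjusted p = 0.000596), Ogdhl (an Ogdh paralogue, 1.75, adjusted p = 0.00241) and Sdhb (the iron-sulphur subunit of succinate dehydrogenase, 2.61, adjusted p = 0.000296). Suclg2, the GTP-forming partner of Suclg1, differed by 0.32 (adjusted p = 0.552). The cytosolic relatives Aco1 (1.78, adjusted p = 0.00219) and Idh1 (2.16, adjusted p = 0.000414) were both called.

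All 6 of the carriers and shuttle enzymes with a lead peak were called, of 7 listed. The aspartate aminotransferase genes gave the largest differences, Got1 with 3.52 (adjusted p = 0.000921) and Got2 with 3.18 (adjusted p = 0.000147). Got1 measured 0 and 3.48 RPKM at P4 and 20.3 to 28.2 at P28, so the size of its difference leans on the P4 library at 0. Got2 measured 0.629 and 1.24 RPKM at P4, 11.2 and 8.73 at P10 and 15.5 to 17.8 at P28, so P4 lay apart from both later ages. The carriers Slc25a11, Slc25a12 and Slc25a13 and the citrate lyase gene Acly ranged from 1.55 to 2.59. Of 12 entry enzymes with a lead peak, 8 were called, among them the pyruvate carriers Mpc1 (1.44) and Mpc2 (2.06), pyruvate carboxylase Pcx (1.60), the malic enzymes Me1 (2.98) and Me2 (1.84), though not Me3 (0.03, adjusted p = 0.955), Pck2 (1.71), and the glutamate dehydrogenase gene Glud1 (1.60). The pyruvate dehydrogenase subunits Pdha1, Pdhb and Dlat, with differences of 1.56, 1.16 and 1.48, were not (adjusted p = 0.0136 to 0.0369). As a further comparison chosen after seeing the data, all 17 glycolysis genes examined had a lead peak and 14 were called, with a median difference of 2.42. Among all lead promoter peaks 33.2% were called higher, with a median difference of 1.33. The count for glycolysis was not refitted under the alternatives. Whether the members differ from these lists was not tested.

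The promoter windows of 8 of the 9 genes, Mdh1 and Mdh2 included, were in the RefSeq table, and Idh3a had no entry. Letters were searched on both strands from 250 bases before to 50 bases after each start. GGGCGG, the core of SP sites, was found in 5 of the 8 genes (Cs, Mdh1, Mdh2, Ogdh and Sucla2) and in 35.7% of all 32851 windows. ATGGCG (YY1) was found in 4 (Idh3g, Mdh1, Ogdh and Sucla2) beside 8.93% of windows, CCGGAAG (ETS) in 2 (Idh3b and Idh3g) beside 8.86%, TAATCC (CRX) in 2 (Cs and Ogdh) beside 7.06%, and AAGGTCA (nuclear receptors) and CACGTG (E-box) in Ogdh beside 4.72% and 7.15%. The NRF1 palindrome, GCGCA followed by TGCGC, was in none of the 8 and in 0.971% of windows. These motifs do not hold one another's letters whole, and Ogdh has 6 windows and so more chances of a match. The lead peaks had a median GC content of 60.6% and a median CpG ratio (observed over that given by base composition) of 0.73, beside 59.2% and 0.68 for all lead promoter peaks.

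The promoter peaks most like the mean of the 7 members over the 7 libraries, by Euclidean distance in log2(RPKM + 1), included those of Ice2 (0.33), Ptpn13 (0.40), Plpp6 (0.44) and Rasl10a (0.44). The Ice2 peak measured 1.64 and 1.08 RPKM at P4, 3.26 and 4.27 at P10, and 7.34, 6.60 and 7.79 at P28, with no overlap between ages.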

How the data were processed

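H3K18La CUT&Tag was measured in 7 retina libraries grouped by the age in the labels. The authors mapped reads to GRCm38 with nf-core/cutandrun, called MACS peaks, kept those beyond a q-value of 1e-06 found in at least 2 replicates of an age, merged the 3 ages, and annotated peaks with ChIPseeker 1.34.1. The deposited RPKM table holds their read rates per peak, with library sizes normalised on bins of 10000 bp, and their own comparison columns (fold changes and p-values, made with edgeR 3.40.2) were not used. Per-sample columns left unused numbered 0.

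RPKM values were converted to log2(RPKM + 1) and fitted over all 108253 peaks and 7 libraries with limma 3.58.1 in R 4.3.3 (trended empirical Bayes, no covariate, Benjamini-Hochberg adjustment, called at adjusted p under 0.01). The fit was also run on simulated counts with changes planted only in peaks at or above the median signal. That run does not cover changes at low peaks or the unlike share of reads in peaks between ages. Single values were tested with exact permutation tests in scipy 1.17.1. Reads were recovered from the RPKM steps, and 100.0% of values came out whole within 0.001 reads. Counting intervals are exact binomial at 95%. The lead peak was the promoter peak of a protein-coding gene with the smallest distance to the start, then the wider. Named were all 9 genes with all their peaks, called genes of the pathway list, and the 5 genes of nearest profile, some of which are not reported here. A few uncalled pathway genes (Suclg2, Me3, Pdha1, Pdhb, Dlat) were named after their values were seen. Members and lists were chosen with earlier results of these data known. In all 15 alternatives were refitted. Replicate numbers shared between ages did not pair libraries.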

Additional observations from a re-analysis of the deposited data

How the results depend on the processing

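Scaling each library to its reads in peaks moved the median P28 against P4 difference of all peaks from 0.68 to -0.29 and median centring moved it to 0.16, and the median of the 7 lead peaks went from 1.28 to 0.71 and 0.75 (2.75 with a pseudocount of 0.1). Members called at P10 numbered 1 with a pseudocount of 0.1, with scaling to reads in peaks or with median centring. Of all peaks 9074, 4713 and 12128 were called higher in these fits, against 12320. They numbered 4 with libraries of 3 reads or fewer set to 3 reads, where 16155 of all peaks were called higher, and 4 at adjusted p under 0.05. The number also moved without P4 replicate 2 or P10 replicate 2, which leaves 1 library at that age. At adjusted p under 0.05, 1 member was called between P10 and P28, and 0 to 2 with 1 library left out (2 without P10 replicate 2, where 14054 of the 108253 peaks were called higher, against 2). Members called between P28 and P4 numbered 2 to 4 under the alternatives run. They numbered 2 with scaling to reads in peaks, where 7796 of all peaks were called higher, against 20488. With the floor of 3 reads they numbered 4, where 20784 were. Pathway genes called numbered 13 with a pseudocount of 0.1, 6 with scaling, 13 with median centring and 8 (without either P4 replicate) to 28 (without either P10 replicate) with 1 library left out. In the fit with a replicate block, 12 pathway genes were called, 3 members at P28 and 2 at P10, while Mdh1 lost its P28 call (adjusted p = 0.0291). Same-numbered libraries deviated together with correlations of -0.0010 to 0.047, so the numbers were not read as pairs.

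Direction turned in the following cases, and the cause was not tested. Idh3b minus Idh3g came to -1.05 with the floor of 3 reads and ran from -0.034 to 0.52 with 1 library left out, and Mdh1 minus Mdh2 ran from -1.23 to 0.14. Idh3b turned with the floor of 3 reads (-0.15 at P28 against P4, -1.11 at P28 against P10) and, at P10 against P4, with scaling (-0.25), with centring (-0.053) and over single left-out libraries (-0.40 to 0.79, negative without P4 replicate 2 or P10 replicate 2). Idh3g turned with scaling (-0.049 at P28, -0.32 at P10) and, at P10, ran from -0.085 without P4 replicate 2 to 1.27. Sucla2 turned with scaling (-0.32 at P28) and, at P10, with the floor (0.64) and over single left-out libraries (-1.52 to 0.34, positive without P10 replicate 1). Suclg1 turned with scaling (-0.17 at P28) and, for P28 against P10, ran from -0.90 to 0.34 (without P10 replicate 1). Ogdh turned for P28 against P10 with centring (-0.048), and Mdh1 at P10 with scaling (-0.35). Of the single-gene values under all alternatives, 352 kept direction and side of the threshold, 24 lost a call, 10 gained one and 16 turned. These counts do not measure stability, since a value with no call in either fit counts as kept. Leaving out a library of the age outside a comparison leaves the fitted difference as it was. The fit on the mean of all promoter peaks of a gene changed the fitted differences of Idh3a only. Over all peaks, 25041 were called between P28 and P4, against 44945 by limma-voom on recovered reads. Among the start-site peaks, depth limits Idh3b most, with 1 read in all at P4 and 1 at P10, and Cs at P4, with 3 reads in all.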
